A study of Mus musculus with 21 samples.

Results

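Lipid droplets are the organelles in which a cell keeps its neutral fat, a core of triglyceride under a coat of phospholipid and protein. The CIDE proteins drive exchange and fusion of droplets, the perilipins coat the droplet and govern the access of lipases, and in the liver both families are best known from fatty liver, where their transcripts accumulate with the stored fat. The nuclear receptor PPAR-gamma is the main activator of fat-storage genes in adipose tissue, and several of those genes are induced in steatotic liver too. The 10 genes described here were Cidea, Cideb, Cidec, Plin2, Plin4, Plin5, Cd36, Pparg, Mogat1 and G0s2. They were taken by gene name from the non-control spots of the arrays, which gave 12 probes of 55681 and 10 genes of the 19718 tested.

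Livers came from adult male C57BL/6J mice. Every mouse was first kept on a normal-fat diet for 3 weeks and then received a high-fat diet for 12 weeks, either plain (HF, 11 arrays) or with 0.33% (w/w) quercetin, a plant flavonol (HF-Q, 10 arrays), and all were fasted for 2 to 4 h. The authors excluded 3 arrays of the 24 mice for uneven hybridization. No group on a normal-fat diet was analysed here, so the arrays show the effect of quercetin on top of a high-fat diet and not that of the diet itself. On each array Cy5-labelled RNA of 1 liver was set against the same Cy3-labelled pool of all samples, without a dye swap. A value below is a log2 ratio of the liver to that pool, where 1 is a doubling, and it is relative: levels of different genes cannot be compared with it. Whole liver was measured, so fewer cells of a type and less RNA per cell cannot be told apart.

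All 12 probes were well above background in both channels on 21 of 21 arrays, and none was saturated. The 10 hepatocyte markers examined, among them Alb, Ttr and Hnf4a, were likewise well above background on 21 arrays. Cideb and Cidec had 2 probes each, and for both genes the brighter one, called probe 1, stands for the gene unless another is named. The probe 2 sequences, in the orientation printed on the array, are shown because the paired probes of these genes differed. For Cidec they differed in the size of the spread over livers, and for Cideb in how they varied over livers. Each has 60 bases with at least 1 forward frame free of stop codons, and they lie on mm9 at chr6:113378116-113378175 (Cidec) and chr14:56373658-56373717 (Cideb).
Cidec probe 2: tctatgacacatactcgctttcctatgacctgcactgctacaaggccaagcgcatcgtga
Cideb probe 2: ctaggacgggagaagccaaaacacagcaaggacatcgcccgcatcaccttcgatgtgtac

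The genes differed greatly in how far livers of the same diet stood apart. The median SD within groups over all tested genes was 0.126, and its 90th percentile was 0.216. Of the 10 genes, 9 were above that percentile, against 10% of all genes by construction, and Cideb was the exception at an SD of 0.097. As the genes were chosen with earlier results of these data known, this count only describes the set. Cidea, with 1.32, ranked 5 among the 19718 genes, Cidec (0.82) ranked 36, Mogat1 (0.62) 84, Cd36 (0.57) 106 and Plin4 (0.54) 146. With the scanner software's processed signals in place of the background-corrected ones, 5 of the 10 genes were in the top 10%.

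**Figure D1:**
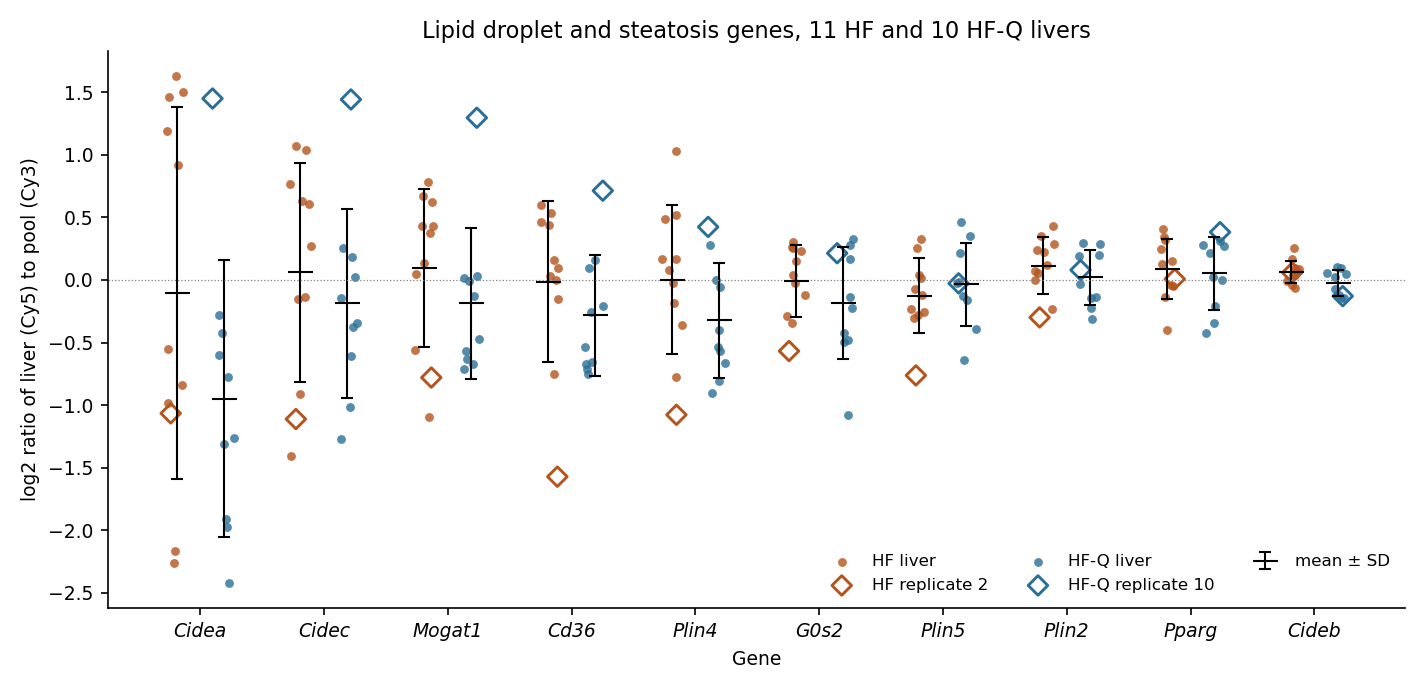
Log2 ratio of each liver to the pool for the 10 genes, with 11 HF and 10 HF-Q livers as points, and mean ± SD as black bars. Cidea spans the widest range and Cideb the narrowest, the groups overlap for every gene, and open diamonds mark HF replicate 2 and HF-Q replicate 10, which lie toward the other group for Cidec, Mogat1, Cd36 and Plin4.

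Among the CIDE genes, Cidea encodes a droplet protein of brown fat that is scarce in lean liver. In HF replicates 1 to 11 its log2 ratios were 1.19, -1.07, 1.50, 0.92, -0.55, -2.17, 1.63, 1.46, -0.84, -0.99 and -2.26. In HF-Q replicates 1 to 10 they were -1.31, -0.42, -1.91, -2.42, -1.26, -0.60, -1.97, -0.77, -0.28 and 1.45. The values fell into 2 sets, with 6 livers at 0.92 or above, 15 livers at -0.28 or below, and a gap of 1.20 between them. The upper set held 5 HF livers and 1 HF-Q liver, replicate 10, and the full range of 4.05 was a 16.5-fold span. The upper set was defined from these values, so its diet makeup is given as a count with no test. The mean was -0.11 ± 1.49 (SD, n = 11) in HF and -0.95 ± 1.10 (SD, n = 10) in HF-Q.

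Cidec encodes the CIDE protein of white fat, which enlarges droplets by moving lipid from small ones to large ones. Its log2 ratios in HF replicates 1 to 11 were 0.27, -1.11, 1.07, 0.61, 0.63, -0.91, 1.04, 0.76, -0.13, -0.15 and -1.41. In HF-Q replicates 1 to 10 they were -0.61, -0.34, -1.27, -1.02, 0.26, -0.38, 0.18, -0.15, 0.02 and 1.44. The highest value of all 21 livers was that of HF-Q replicate 10, the lowest that of HF replicate 11, and the groups overlapped over nearly their whole range. Its 2 probes followed each other closely over the livers (r = 0.953, rho = 0.957), but the SD over livers was 0.81 for probe 1 and 0.51 for probe 2.

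Cideb, the CIDE gene of normal hepatocytes, with a part in lipoprotein lipidation, was the flattest of the 10. Its log2 ratios ran from -0.07 to 0.25 in HF (median 0.06) and from -0.15 to 0.11 in HF-Q (median -0.03). Of the 10 HF-Q livers, 5 were below the lowest HF liver by probe 1, and 0 by probe 2. The probes of Cideb agreed less well than those of Cidec (r = 0.531, rho = 0.422). Probe 1 had r = 0.23 with Cidec and probe 2 had r = 0.59, so what is said of Cideb and its co-variation depends on the probe.

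Perilipins coat droplets in different ways: Plin2 is the general coat protein of hepatocyte droplets, Plin4 coats small nascent droplets, chiefly in adipocytes, and Plin5 links droplets to mitochondria in tissues that burn fat. Plin4 varied most of the 3. Its log2 ratios in HF replicates 1 to 11 were -0.36, -1.08, 0.48, -0.02, 0.52, 0.17, 1.03, 0.08, -0.18, 0.16 and -0.77. In HF-Q replicates 1 to 10 they were -0.40, -0.57, -0.90, -0.81, 0.28, -0.54, -0.06, -0.67, -0.00046 and 0.42. Only 2 HF-Q livers, replicates 5 and 10, were above the pool, while both extremes were HF livers, replicates 2 and 7. Plin2 kept within -0.30 to 0.43 in HF (median 0.12) and -0.31 to 0.29 in HF-Q (median 0.02). Plin5 ran from -0.76 to 0.33 in HF (median -0.12) and from -0.64 to 0.46 in HF-Q (median -0.02), and was the only one of the 10 whose mean was higher in HF-Q.

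Cd36 encodes a fatty acid transporter of the plasma membrane. Its log2 ratios in HF replicates 1 to 11 were 0.44, -1.57, 0.46, 0.0030, 0.60, 0.10, 0.54, 0.03, -0.15, 0.16 and -0.75. In HF-Q replicates 1 to 10 they were -0.54, -0.66, -0.68, -0.75, 0.09, -0.21, -0.72, -0.26, 0.16 and 0.71. HF replicate 2 stood 0.82 below the next lowest liver, and HF-Q replicate 10 was the highest of all. Mogat1 encodes a monoacylglycerol acyltransferase, which makes diacylglycerol for triglyceride synthesis. Its values in HF replicates 1 to 11 were 0.78, -0.78, 0.67, 0.38, 0.43, -0.56, 0.62, 0.43, 0.14, 0.05 and -1.09. In HF-Q replicates 1 to 10 they were -0.63, -0.47, -0.57, -0.68, -0.01, -0.13, -0.71, 0.01, 0.03 and 1.30. Of the HF-Q livers, 9 were below the HF median of 0.38, and the other, replicate 10, was above every HF liver.

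G0s2 encodes an inhibitor of adipose triglyceride lipase. It ran from -0.57 to 0.30 in HF (median 0.04) and from -1.08 to 0.33 in HF-Q (median -0.18), and was the gene with the widest spread in HF-Q relative to HF (SD 0.45 and 0.29). Pparg, the transcription factor, ran from -0.40 to 0.41 in HF (median 0.13) and from -0.42 to 0.38 in HF-Q (median 0.12). Its probe was printed 10 times on each array, which gives a measure of the error within an array. The SD over these spots was 0.014 to 0.058 (median 0.039), against an SD of 0.26 between livers of one diet, so the spread of Pparg between livers was larger than that between spots. This compares spots of one labelling, not repeated extractions, and only for this probe.

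The difference between the diets was not larger than the spread between livers for any of the 10 genes. By limma, 0 of the 10 passed an adjusted p of 0.05, where the background was 0% of 19718 genes. At an unadjusted p under 0.05 there were again 0 of 10, against 5.94% of all genes in either direction and 2.93% lower in HF-Q. That count was 3 with array weights (Cidea, Plin4 and Mogat1; 8.87% of all genes), 1 with the slide as a block (Cideb; 6.94%) and 0 to 2 with 1 liver left out, and the lowest limma adjusted p of the 10 genes in these fits was 0.47 (Plin4, array weights). The log2 fold change of HF-Q over HF was below 0 for 9 of the 10, against 53.1% of all genes, and its median was -0.21 against -0.0044 over all genes. As these genes rise and fall together over livers, the 9 are not 9 separate observations.

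Cidea had the lowest fold change, at -0.84 ± 0.52 (SE; limma p = 0.119, adjusted p = 0.919), with a 95% interval from -1.94 to 0.25. Plin4 was at -0.33 ± 0.21 (SE; limma adjusted p = 0.935), Mogat1 at -0.28 ± 0.24 and Cd36 at -0.27 ± 0.23. Cidec was at -0.25 ± 0.33 and G0s2 at -0.18 ± 0.15. Their intervals ran from -0.77 to 0.12 for Plin4, from -0.79 to 0.23 for Mogat1, from -0.75 to 0.21 for Cd36 and from -0.93 to 0.43 for Cidec, so neither a clear decrease nor a small increase lay outside any of the 4. Cideb had the lowest p with a small difference, -0.091 ± 0.044 (SE; limma p = 0.0513, adjusted p = 0.838). For it a permutation test of the group labels, two-sided, gave p = 0.0460, not adjusted for the number of genes. The difference depended on the processing, at -0.015 with median centring, -0.053 with the authors' deposited log2 ratios and -0.11 with the slide as a block. The second probe of Cideb gave -0.045 ± 0.043. Plin2 was at -0.095 ± 0.091, Plin5 at 0.091 ± 0.126 and Pparg at -0.038 ± 0.107.

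Several of these differences moved with single livers. Cidec was at -0.43 without HF-Q replicate 10 and at -0.13 without HF-Q replicate 3. Mogat1 was at -0.45 without HF-Q replicate 10, and Cd36 at -0.43 without HF replicate 2. Without HF-Q replicate 4, G0s2 was at -0.077, Plin2 at -0.058 and Plin5 at 0.16, and without HF replicate 2 Plin5 was at 0.028. Cidea ranged from -1.11 to -0.67 and Plin4 from -0.44 to -0.22 with 1 liver left out.

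**Figure D2:**
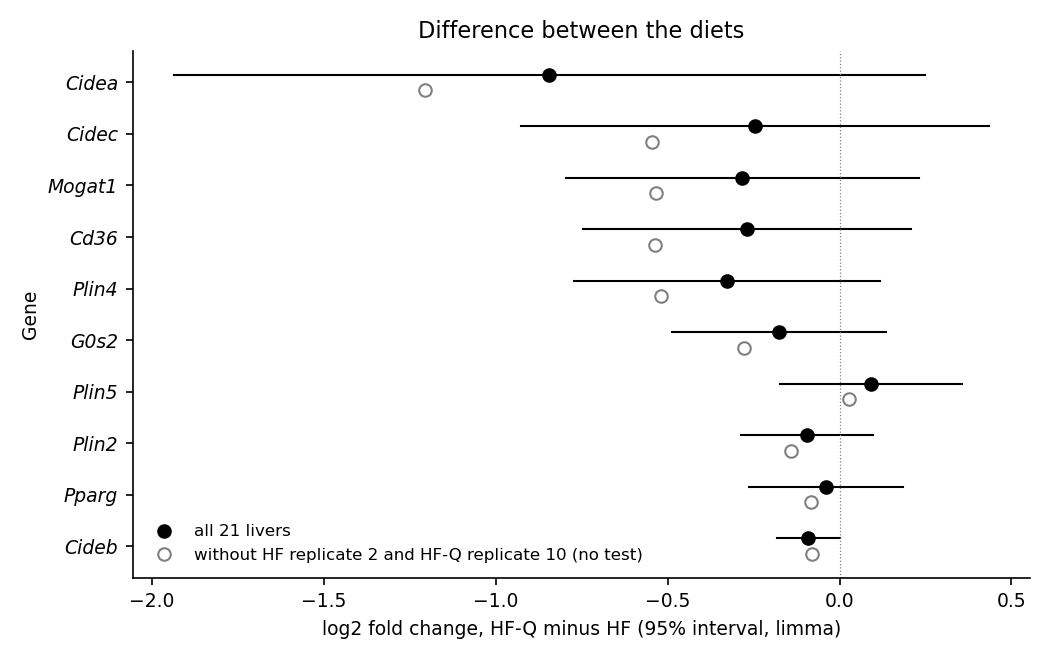
Log2 fold change of HF-Q over HF for each gene from all 21 livers (filled points with 95% intervals from limma), and without HF replicate 2 and HF-Q replicate 10 (open points, no test). Every interval from all livers includes 0, and Cidea has the widest, from -1.94 to 0.25.

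Single livers of each diet lay among or beyond those of the other. HF replicate 2 had the lowest HF value for 5 of the 10 genes (Plin2, Plin4, Plin5, Cd36 and G0s2), and HF-Q replicate 10 had the highest HF-Q value for 6 (Cidea, Cidec, Plin4, Cd36, Pparg and Mogat1). They were not alone in this. HF replicate 11 was below the pool for 9 of the 10 genes and had the lowest HF value for Cidea, Cidec, Pparg and Mogat1, and HF-Q replicate 5, like HF-Q replicate 10, was above the pool for 8. Without HF replicate 2 and HF-Q replicate 10 the log2 fold change was -1.21 for Cidea, -0.54 for Cidec, -0.54 for Cd36, -0.53 for Mogat1 and -0.52 for Plin4. For Cideb and Plin5 it shrank, to -0.080 and 0.027. The pair was singled out by expression values, and for the genes for which they lie toward the other diet, leaving them out enlarges the difference by construction. These values are therefore given with no test. No label sets these livers apart from the others.

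The arrays lay on 3 slides, each with livers of both diets (3 HF and 4 HF-Q on slide 1, 4 and 2 on slide 2, 4 and 4 on slide 3), and the fold changes differed between slides. Cidea was at 0.10 on slide 1, -0.59 on slide 2 and -2.13 on slide 3 (limma unadjusted p = 0.00555, adjusted p = 0.933 on slide 3). Mogat1 was at 0.15, -0.42 and -0.62 on the 3 slides. On slide 2 Cidec was at 0.054, Plin2 at 0.028, Pparg at 0.085 and G0s2 at 0.00083. On slide 3 all 10 genes were below 0, Plin5 included at -0.046. Slide 1 holds HF-Q replicate 10 and slide 3 holds HF replicate 2. With the slide as a block, 9 of 10 genes were again below 0 and 0 genes on the array passed the threshold.

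Most of the genes rose and fell together over livers. Of the 45 pairs of the 10 genes, 25 (55.6%) had a Pearson r of at least 0.5 over the 21 livers, against 3.13% of all pairs of tested genes, and the median r was 0.53. As the values of Cidea fall into 2 sets, no pooled r is printed for it, but its pairs are included in the count and median over 45 pairs. The 36 pairs of the other 9 genes include 20 of those 25, all 20 with a Benjamini-Hochberg adjusted p under 0.05 (permutation of livers, over the 45 pairs). With the group means removed, 20 of these 36 pairs were again at 0.5 or above, so the pattern lies mostly within the diets. The share of 19217 other genes with r of at least 0.5 differed by gene, from 2.07% for Pparg to 8.45% for Mogat1. The members were chosen as related genes, so these counts describe the set.

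**Figure D3:**
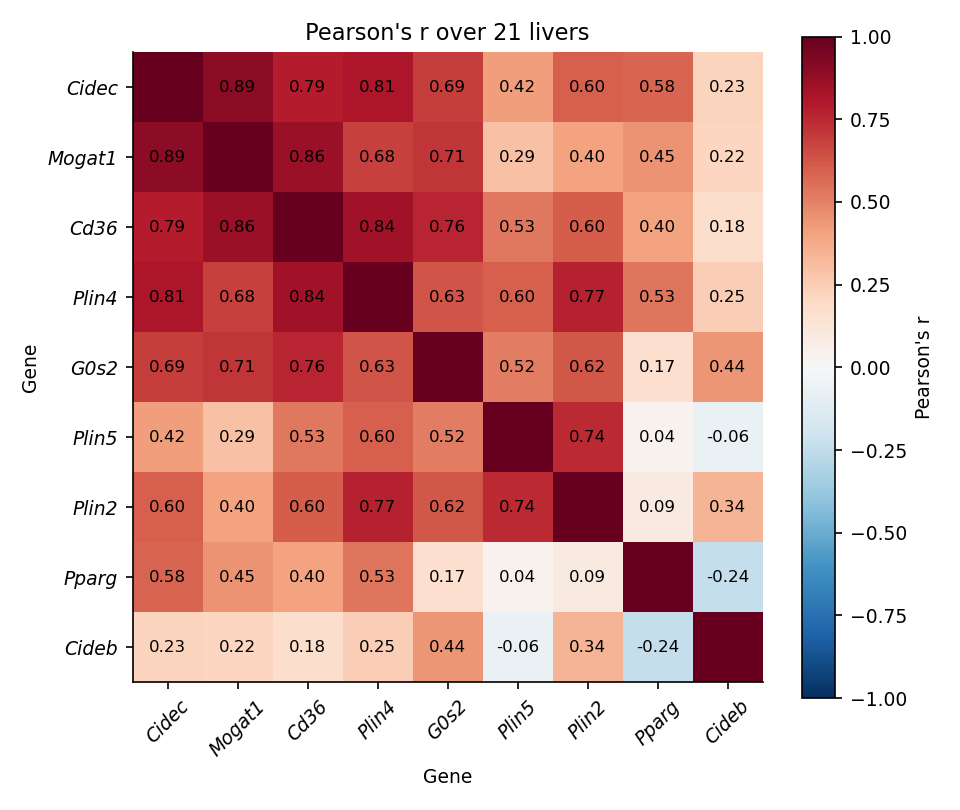
Pearson's r over 21 livers for each pair of 9 genes, Cidea left out because its values fall into 2 sets. Cidec, Mogat1, Cd36 and Plin4 form a block of high values, topped by Cidec with Mogat1 at 0.89, Plin2 and Plin5 reach 0.74 with each other, and the row of Cideb stays at 0.44 or below.

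The tightest pair was Cidec and Mogat1 (r = 0.895, rho = 0.870, permutation p = 1e-05, the smallest that 100000 permutations can give, adjusted p = 7.5e-05). Its r was 0.844 without the 2 livers farthest from the Cidec median, HF-Q replicate 10 and HF replicate 11, and 0.976, 0.845 and 0.861 on slides 1, 2 and 3. Cd36 and Mogat1 had r = 0.860 (rho = 0.887, permutation adjusted p = 7.5e-05), with 0.882 without the 2 farthest livers and 0.945, 0.729 and 0.920 on the 3 slides. Both pairs therefore held on every slide.

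Plin4 and Cd36 had r = 0.837 (rho = 0.879, permutation adjusted p = 7.5e-05), with 0.807 without the 2 farthest livers, but 0.976, 0.321 and 0.852 on the slides. Cidec and Plin4 had r = 0.810 (rho = 0.799, permutation adjusted p = 7.5e-05), with 0.794 without the 2 farthest livers, and 0.950, -0.0058 and 0.916 on the slides. For Plin4, then, the relation to these genes held on slides 1 and 3 and was weak or missing over the 6 livers of slide 2. Cidec and Cd36 had r = 0.786 (rho = 0.787, permutation adjusted p = 1.93e-04), 0.739 without the 2 farthest livers and 0.977, 0.517 and 0.892 on the slides.

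Plin2 varied with the other perilipins and with most of the genes above. Plin2 and Plin4 had r = 0.767 (rho = 0.787, permutation adjusted p = 4e-04), with 0.690 without the 2 farthest livers and 0.788, 0.749 and 0.821 on the slides. Plin2 and Plin5 had r = 0.742 (rho = 0.695, permutation adjusted p = 4.5e-04), with 0.603 without HF-Q replicate 4 and HF replicate 2 and 0.198, 0.888 and 0.963 on the slides. Plin2 also varied with G0s2 (r = 0.623, rho = 0.605, permutation adjusted p = 0.00667), Cd36 (r = 0.602, rho = 0.612, permutation adjusted p = 0.00945) and Cidec (r = 0.601, rho = 0.626, permutation adjusted p = 0.00997). Without the 2 farthest livers these were 0.428, 0.429 and 0.689. Plin2 and Mogat1 had a lower value (r = 0.405, rho = 0.447, permutation adjusted p = 0.106; 0.459, 0.158 and 0.497 on the slides). Plin5 and Mogat1 had r = 0.295 (rho = 0.266, permutation adjusted p = 0.252). The difference between these correlations was not tested.

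G0s2 varied with Cd36 (r = 0.763, rho = 0.719, permutation adjusted p = 3.94e-04; 0.758 without the 2 farthest livers; 0.839, 0.808 and 0.701 on the slides). It varied with Mogat1 to a like degree (r = 0.714, rho = 0.673, permutation adjusted p = 0.00119). The relation of G0s2 to Plin5 (r = 0.515, rho = 0.370) rested on HF replicate 2 and HF-Q replicate 4, without which r was 0.179.

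For Pparg the pooled and within-slide values were at odds. With Cidec it had r = 0.582 over all livers (rho = 0.551, permutation adjusted p = 0.0135; 0.442 without the 2 farthest livers), but 0.946 on slide 1, -0.546 on slide 2 and 0.414 on slide 3. With Cd36 the values were 0.982, -0.879 and 0.326 on the slides, and 0.402 pooled (rho = 0.364, permutation adjusted p = 0.106). For these 2 pairs the relation was positive on slides 1 and 3 and turned over the 6 livers of slide 2.

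**Figure D4:**
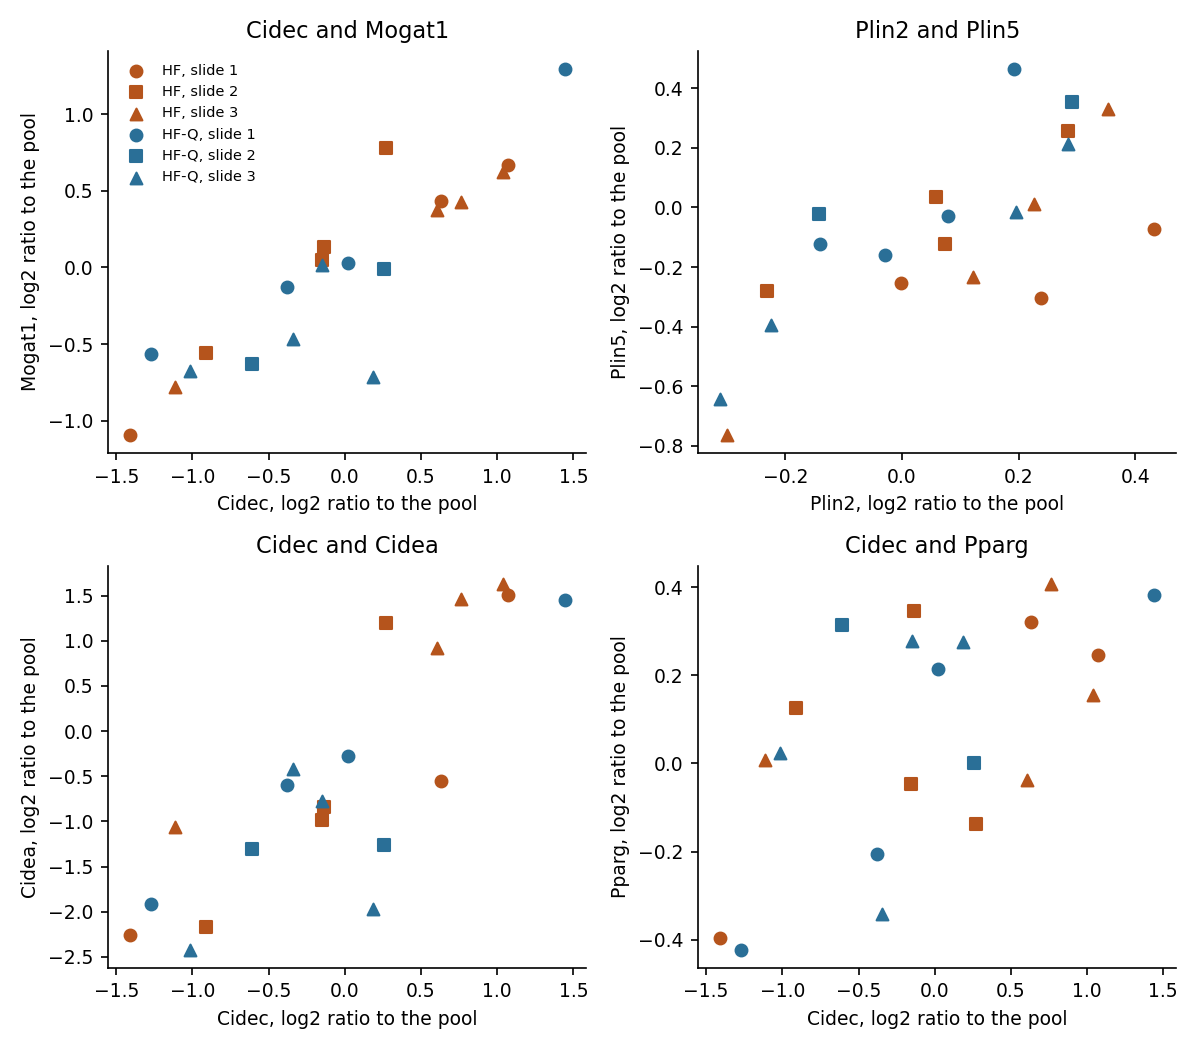
Log2 ratios to the pool of 4 pairs of genes, 1 point per liver, coloured by diet and shaped by slide. Cidec and Mogat1 follow a single line on all slides, Cidea forms an upper set of 6 livers and a lower set of 15, and Pparg against Cidec falls on slide 2 (squares) while it rises on slide 1 (circles).

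Cidea was followed within its lower set of 15 livers, where it varied with Mogat1 (r = 0.715, rho = 0.707, permutation p = 0.00353, adjusted p = 0.0318 over 9 genes). With Cidec r was 0.609 (rho = 0.546, permutation adjusted p = 0.0538) and with G0s2 0.605 (rho = 0.546, permutation adjusted p = 0.0538), both short of the threshold. With the 2 livers farthest from the median of Cidea left out, these were 0.613, 0.439 and 0.462. In the upper set of 6 livers r was 0.301 with Mogat1 and 0.625 with Cidec, over too few livers to say more. The 6 livers of the upper Cidea set had Cidec values of 0.27 to 1.44, and the other 15 had values of -1.41 to 0.63, so the sets overlap in Cidec.

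**Figure D5:**
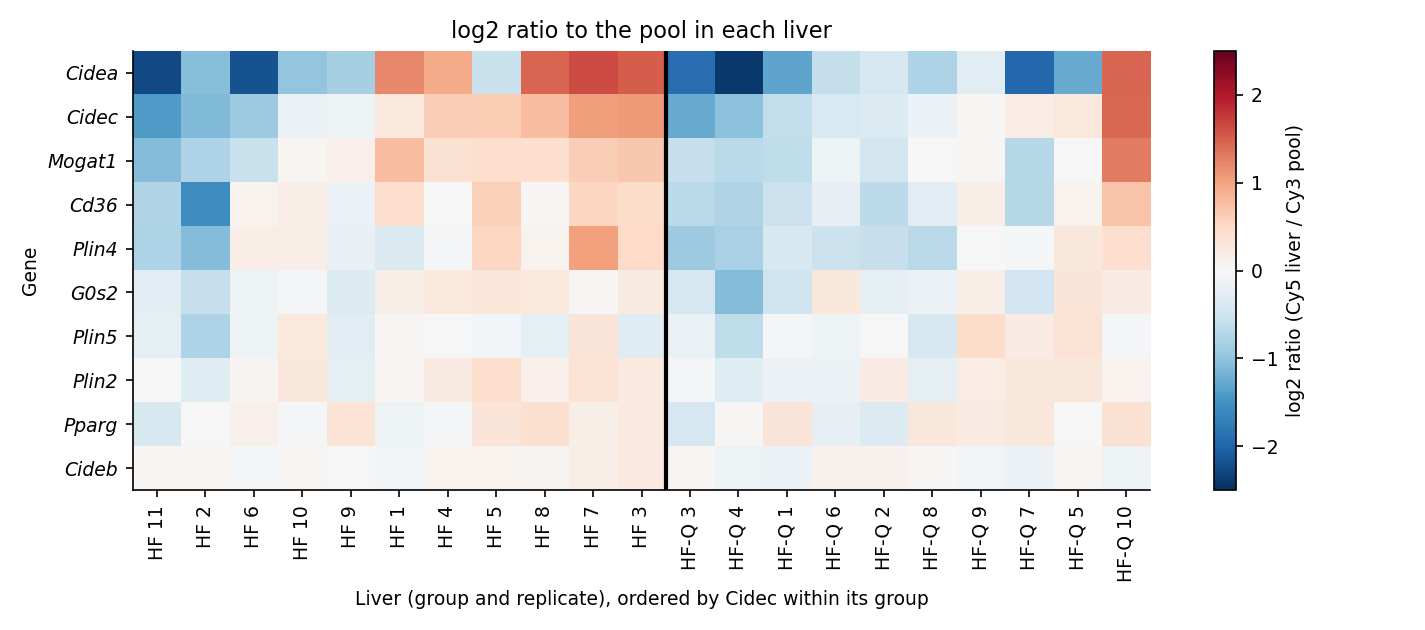
Log2 ratio to the pool (colour) of the 10 genes in the 21 livers, HF left of the line and HF-Q right, ordered by Cidec within each group. Cidea, Cidec and Mogat1 change from blue to red along the HF livers, most HF-Q livers are blue for these genes, and HF-Q replicate 10 is red.

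Other genes that followed each member most closely are given as a description, over the 21 livers and all 19227 genes with a value on every array. Lgals1, the gene of galectin-1, was first for both Mogat1 (r = 0.962) and Cidec (r = 0.933), and Clstn3 (0.894) and Anxa2 (0.877) came next for Cidec, with Mogat1 itself ranking 2 among all genes for it. Plin4 was followed by the peroxisomal thiolase gene Acaa1b (0.900) and the peroxisome gene Pex11a (0.856), and Cd36 by Uck1 (0.922) and Rdh16 (0.890). Plin2 was followed by Enc1 (0.857), 2010003K11Rik (0.794) and the ferritin gene Fth1 (0.793), and Plin5 by Gfod2 (0.905), Mreg (0.887) and Tor3a (0.875). Cideb was followed by the mitochondrial genes Got2 (0.829) and Pcx (0.823) and by Slco2b1 (0.815). Pparg was followed by Mirt2 (0.815), Galk2 (0.757) and Zwint (0.750), and G0s2 by Gpc1 (0.795), Etfrf1 (0.783) and Nrbf2 (0.767). Cidea was followed by 1700037H04Rik, Entpd4 and Coq7, with no r given because of its 2 sets.

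Lists of genes around these 10 were set beside them through the mean log2 ratio of each list in each liver, against Cidec and Plin2, which makes 28 relations, 3 of them with an adjusted p under 0.05. Any of the 10 genes was taken out of the lists before the means were computed, as Cidec was from the list of PPAR-gamma targets. Cidec and Plin2 were picked for this after their values were seen. Cidec followed the mean of the 13 measured adipose-type targets of PPAR-gamma (r = 0.899, rho = 0.866, permutation adjusted p = 2.8e-04; 0.878 without the 2 farthest livers; 0.945, 0.788 and 0.912 on the slides). The members of that list did not act alike. Named after their values were seen, Gpd1 (0.76), Agpat2 (0.75), Fabp4 (0.71) and Cfd (0.68) had high r with Cidec, and Slc2a4 (0.20), Lpl (0.07), Pck1 (-0.12), Pnpla2 (-0.18) and Acsl1 (-0.26) did not. Cfd, with an SD of 1.05 within groups, weighs most in the mean. Plin2 followed the mean of the 20 targets of PPAR-alpha, the receptor that switches on fatty acid oxidation (r = 0.808, rho = 0.827, permutation adjusted p = 2.8e-04; 0.764 without the 2 farthest livers; 0.972, 0.896 and 0.759 on the slides). The crossed relations were lower, at 0.475 for Plin2 with the PPAR-gamma list and 0.462 for Cidec with the PPAR-alpha list (permutation adjusted p = 0.115 for both), and the difference was not tested. Cd36, outside the 28 relations and not tested, did not show this contrast. Its r was 0.693 with the PPAR-gamma list and 0.687 with the PPAR-alpha list.

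The third relation was that of Cidec with 6 adipocyte markers (r = 0.705, rho = 0.623, permutation adjusted p = 0.00336; 0.586 without the 2 farthest livers), but 4 of the 6 (Aqp7, Fabp4, Slc2a4 and Cfd) are also in the PPAR-gamma list, and of the other 2 Lep had r = 0.11 with Cidec and Lipe -0.07. It is therefore no separate observation from the first. A further 4 markers were listed but not measured. Of these 4, the defining marker Adipoq was well above background on 0 arrays, and Plin1, Retn and Ucp1 on 1 at most. The list mean ranged from -0.38 to 0.34 in HF and from -0.33 to 0.35 in HF-Q. The part of adipocyte RNA in the values of Cidec was not tested. The mean of 10 hepatocyte markers ran against Cidec (r = -0.540, rho = -0.544, permutation adjusted p = 0.0682), short of the threshold. These markers did not act alike, and their single r with Cidec ranged from -0.74 to 0.50. Among those named above, Ttr had r = 0.50 with Cidec, Alb -0.33 and Hnf4a -0.46. The mean of the hepatocyte markers was lowest in HF-Q replicate 10, at -0.23. The part of hepatocyte content in the values of that liver was not tested. Of 4 measures of array quality set against Cidea, Cidec, Plin2 and Cd36, the r largest in size was -0.39, between Plin2 and the percentage of spots well above background.

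Between the diets, none of the genes of these lists passed an adjusted p of 0.05 by limma. The shares over all genes to set the counts against are 53.1% lower in HF-Q, 5.94% at an unadjusted p under 0.05 and 2.93% at that p and lower. Of 16 measured genes of droplet coat and assembly, 12 were lower in HF-Q and 2 had an unadjusted p under 0.05, with a median of -0.036 that turned to 0.014 with median centring. Hsd17b11, a droplet dehydrogenase, was at -0.15 ± 0.042 (SE; limma adjusted p = 0.684), and Sqle, squalene epoxidase of cholesterol synthesis, at 0.70 ± 0.27 (SE; limma adjusted p = 0.789). Hsd17b13 was at -0.092 ± 0.051 and Fitm2 at -0.083 ± 0.068. Of 15 genes of triglyceride synthesis 12 were lower, with Dgat2, which makes triglyceride from diacylglycerol, at -0.19 ± 0.086 (SE; limma adjusted p = 0.823), Agpat3 at -0.088, Mogat2 at -0.11 and Lpin1 at -0.18. The median of -0.026 turned to 0.020 with median centring. Among 12 genes of fatty acid uptake 8 were lower, yet Fabp5, a fatty acid binding protein, was at 0.65 ± 0.20 (SE; limma adjusted p = 0.740). Got2 was at -0.10 ± 0.037 (SE; limma adjusted p = 0.771), Fabp2 at -0.22 and Slc27a5 at -0.099. Of 11 lipolysis genes 6 were lower, with Mgll, the monoglyceride lipase, at -0.15 ± 0.068 (SE; limma adjusted p = 0.819), Ces1g at -0.11, Tfeb at 0.052 and Lipa at -0.080. Their median of -0.0033 turned to 0.043 with median centring. Pnpla2, the adipose triglyceride lipase that G0s2 inhibits, was at 0.0084 ± 0.065. Of 20 PPAR-alpha targets 16 were lower, 5 of them with an unadjusted p under 0.05. Among them Aldh3a2 was at -0.17 and Ppara itself at -0.23. The median of the list was -0.086, and it was -0.043 with median centring and -0.16, -0.057 and -0.051 on slides 1, 2 and 3.

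Promoter windows of 300 bases, 250 before the gene's start and 50 after it, were searched in RefSeq sequence of GRCm38.p6, where 13 windows matched 9 of the 10 genes. The direct repeat of 2 half-sites with 1 base between them that PPARs bind, known as DR1, was searched on both strands, with any base allowed at one position of each half-site, and was in 0 of the 13 windows, against 0.381% of all 32851. At so low a share, 13 windows are too few for their count to say anything about these genes. The half-site AGGTCA, also on both strands, was in 6 of 13 windows, of the 4 genes Plin2, Plin5, Cd36 and Pparg, against 16.3% of all windows. No window of Cidec, Mogat1, Plin4, Cideb or G0s2 held it. The sites upstream of Plin2, Plin5 and Cd36 are shown as examples with the half-site in capitals, on the strand of the gene (the minus strand for all 3). The capitals read AGGTCA for Plin5. For Plin2 and Cd36 the half-site is on the opposite strand, so the capitals read its reverse complement, TGACCT. They lie at chr4:86670245-86670304 (Plin2), chr17:56117686-56117745 (Plin5) and chr5:17836092-17836146 (Cd36).
Plin2: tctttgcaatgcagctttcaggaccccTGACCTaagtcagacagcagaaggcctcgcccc
Plin5: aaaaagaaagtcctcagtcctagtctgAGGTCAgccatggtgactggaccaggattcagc
Cd36: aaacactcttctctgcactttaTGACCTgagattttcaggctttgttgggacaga
A match of these letters is a description of the sequence, and binding was not measured.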

How the data were processed

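Liver RNA of 21 mice was measured on 2-colour arrays of 62976 spots. Spot intensities were extracted by the authors with Agilent Feature Extraction 10.7.3.1, per the submitters' processing notes. The deposited scanner files hold raw intensity, background intensity and flags per spot, and the authors' deposited table holds log2 ratios, used as an alternative. Here the mean intensities were background-corrected (normexp, offset 50) and loess-normalized within each array (limma 3.58.1, R 4.3.3). Control spots and outlying spots were left out. Probes well above background on at least 10 arrays were kept (26291 of 55681 probes), and the brightest stood for the gene. Names were updated through RefSeq for 27235 probes. The diets were compared gene by gene with limma (lmFit, eBayes; 19718 genes, Benjamini-Hochberg adjustment). The number of arrays limits the precision. Correlations over livers were tested by 100000 permutations, two-sided. The procedure was tested on simulated data. The limma p-values set the difference between the diets against the spread between these livers within a diet.

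The genes described and the gene lists were chosen with earlier results of these data known. Named are all 10 genes, the 3 most similar genes of each and the 4 genes of lowest p of the lists of lipid handling compared between the diets, except that some of these genes are not reported here. Pnpla2 belongs to a panel of related genes. List genes named for their r with Cidec were chosen after their values were seen. Alternatives covered background correction, normalization, filters, probes, slides, weights and left-out livers. HF replicate 2 and HF-Q replicate 10 were left out together as an alternative chosen after seeing the data.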

Additional observations from a re-analysis of the deposited data

Results flagged for a closer look

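HF-Q replicate 10 stood far from the other 9 HF-Q livers by Dixon's test for 3 of the 12 probes, where chance flags about 1 in 20 groups, and the 3 probes come from the same liver and are not independent. Mogat1 was at 1.30 there, with the next HF-Q liver at 0.030. Cidec probe 2 was at 1.19, with the next at 0.15, and probe 1 of Cidec, at 1.44, was not far enough from the others to be singled out. Cideb probe 2 was at 0.15, with the next at 0.049, whereas probe 1 of Cideb was at -0.13 in the same liver. The HF group, with 11 livers, was not tested in this way.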

How the results depend on the processing

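No gene of the 10 passed an adjusted p of 0.05 under any alternative in which the 10 were tested, which leaves out the fit without both HF replicate 2 and HF-Q replicate 10. The count of genes past that threshold on the whole array, 0 in the reported analysis (1172 at an unadjusted p under 0.05), was 1 on slide 2 alone, 1 with array weights, 0 to 4 with 1 liver left out (4 without HF replicate 2, 1 without HF-Q replicate 10), and 18 without both of those livers, an exclusion made on expression values after seeing the data. The 9 genes in the top 10% of SD became 5 with the processed signals, and 8 to 9 with 1 liver left out. The 25 pairs with r of at least 0.5 became 35 with median centring (median r 0.635), 25, 20 and 28 on slides 1, 2 and 3, 23 to 26 with 1 liver left out, and 19 with the first principal component of all genes (15.7% of the variance) removed. Directions turned for Cidea (0.10) and Mogat1 (0.15) on slide 1, for Cidec (0.054), Plin2 (0.028), Pparg (0.085) and G0s2 (0.00083) on slide 2, for Plin5 (-0.046) on slide 3, and for Pparg with median centring (0.0031) and without HF-Q replicate 2 (0.0055) or HF-Q replicate 3 (0.014), its range with 1 liver left out being -0.087 to 0.014. List medians moved on slide 1 to -0.094 (droplet coat) and -1.73 (pancreatic acinar markers), and on slide 2 to 0.065 (triglyceride synthesis) and 0.020 (fatty acid uptake). The cause was not tested. Replicate numbers did not pair the livers (correlation of same-numbered livers -0.337 to 0.158), and with the replicate block 0 genes passed.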
